A study of Saccharomyces cerevisiae with 16 samples.

Results

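The genes described here encode the machinery that starts and carries out DNA replication in budding yeast, together with the enzymes that make its deoxyribonucleotide building blocks. They are 47 genes of 6248 measured features, chosen by their symbols in the array's platform annotation. Each of the 47 was represented by 1 probe. By role they comprised 6 subunits of the origin recognition complex, 7 licensing factors, 8 helicase activators, 9 subunits of DNA polymerases and primase, 6 proteins of the sliding clamp and its loader, 3 subunits of the single-strand binding protein, 2 enzymes that join lagging-strand fragments, and 6 genes for ribonucleotide reductase and thymidylate.

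Transcripts were measured in EC1118, a diploid wine strain of Saccharomyces cerevisiae, on a synthetic grape must. The medium held glucose at 200 g/L and assimilable nitrogen at 100 mg/L. The batch group (n = 4) was taken in the stationary phase of batch fermentations at 28 °C, when 164 g/L glucose remained. The no-addition group (n = 4) came from the third tank of a continuous fermentation in 4 stages, where nitrogen was exhausted, at the same 164 g/L residual glucose. The ammonium group (n = 3) and the valine group (n = 3) came from the third tank at the new steady state reached under a continuous flow of either compound, which supplied a further 100 mg/L nitrogen. All groups shared the strain and the medium, and the labels name no modified allele in any group. Samples of the continuous fermentation were drawn 24 h apart, and the labels do not say that they came from separate cultures, so p-values measure the spread between these samplings. The control samples were drawn before either flow began, so time in the run and added nitrogen cannot be told apart. The labels give no residual glucose for the ammonium and valine groups and no temperature for the continuous fermentation. Differences in either between groups are thus not known.

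In dividing yeast the origin recognition complex marks origins of replication, Cdc6 and the MCM helicase are loaded there in G1, and a kinase and further factors start the helicase at the onset of S phase. Polymerases, primase, the sliding clamp and the single-strand binding protein then copy the DNA. Ribonucleotide reductase supplies deoxyribonucleotides, with Rnr1 as the main large subunit, Rnr3 as an alternative large subunit, and Rnr2 with Rnr4 as the small subunits. In yeast, transcripts of many of these genes peak around the G1 to S transition, and cells that run out of nitrogen stop dividing in G1.

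Values are log2 intensities of a single dye, normalized by the authors, so a difference is relative to the whole array. The 16 arrays had medians between 9.09 and 9.10, and the number of arrays limits the precision. Arrays lay on 2 slides that both held all 4 groups. Over all features, the SD of the difference between 2 samples of a group was 0.111 to 0.302, and that between the 2 arrays of ammonium 3 was 0.168. Batch 1, ammonium 2 and valine 3 stood apart from the rest of their groups, with SDs of 0.201 to 0.302, 0.201 to 0.223 and 0.185 to 0.189 from the other samples of the group, against 0.123 to 0.167, 0.111 and 0.115 among those others. Over all features, the deviations of these 3 samples from their group means went together. Correlations were 0.65 for batch 1 and valine 3, 0.38 for batch 1 and ammonium 2, and 0.31 for ammonium 2 and valine 3. Among the other pairs across groups the highest was 0.46, for batch 3 and valine 2. The cause was not tested. A further sample had labels that name both ammonium and valine and entered no comparison. Of 14 haploid-specific transcripts, 11 lay among the dimmest 20% of features (log2 intensity up to 7.54), as did 12 of 14 meiotic transcripts; above that limit were STE4, STE6 and RME1, and IME4 and RED1. The summed level of the haploid-specific list, as its mean per sample, was 6.64 to 6.70 in batch, 6.64 to 6.71 without addition, 6.45 to 6.51 on ammonium and 6.50 to 6.56 on valine, and its part in the results was not tested.

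With added nitrogen, most of the replication genes were higher than in the starved cells of the continuous culture. Differences were called with limma at an adjusted p under 0.05 (Benjamini-Hochberg over all features). On ammonium, 29 of the 47 genes rose and 4 fell (70.2%), against 67.6% of all features called, with 32.1% higher and 35.5% lower. On valine, 31 rose and 4 fell (74.5%), against 67.9% of all features called, with 32.3% higher and 35.6% lower. The counts by role further on are to be read against these same shares. The share called at all was thus near the background in both comparisons, and the share called higher was above it. The median log2 difference of the 47 genes was 0.40 on ammonium and 0.33 on valine, against −0.02 and −0.01 for all features. A rise of at least 2-fold was called in 7 genes on ammonium (14.9%, against 6.88% of all features) and in 8 on valine (17.0%, against 6.51%). On ammonium all samples lay above all no-addition samples in 31 of the 47 genes (66.0%, against 34.1% of all features) and below them in 4 (against 37.4%). On valine they lay above in 32 (68.1%, against 32.8%) and below in 4 (against 36.8%). Both comparisons share the no-addition samples. These are bulk samples, in which fewer cells making a transcript and less of it per cell cannot be told apart.

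Slide 1 held 1 no-addition and 1 ammonium sample, and slide 2 held 1 batch and 1 valine sample. In fits within a slide a lone sample was assumed to vary like the other groups. Ammonium 3 had an array on each slide, so its RNA was the only ammonium sample of slide 1 and 1 of 3 on slide 2. The fits within slides are thus not separate checks of ammonium. On ammonium 21 genes were called within slide 1 and 36 within slide 2, with medians of 0.41 and 0.44. On valine 22 and 27 were called, with medians of 0.31 and 0.31. With the slide as a block, 34 genes were called in each comparison. Of the 33 calls on ammonium, 21 were kept within slide 1 and 33 within slide 2. Those lost in slide 1 were ORC2, ORC4, MCM2, MCM4, MCM5, MCM7, PSF1, PSF2, PRI1, DPB4, RFC1 and RFA1, of which ORC2 (0.19), MCM4 (0.05) and PSF1 (0.16) also shrank by more than 1.5 times.

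Of the 35 calls on valine, 22 were kept within slide 1 and 25 within slide 2. Lost in both were ORC1, ORC5, MCM2, MCM3, MCM7, POL3 and RNR2. Lost in slide 1 alone were ORC2, PSF2, SLD5, DPB4, RFA1 and RFA3, with SLD5 at 0.21, DPB4 at 0.19 and RFA1 at 0.08 there. Lost in slide 2 alone were ORC4, MCM5 and RAD27, at −0.20, 0.30 and 0.31. The genes with a called rise of at least 2-fold were not among those lost.

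**Figure D1:**
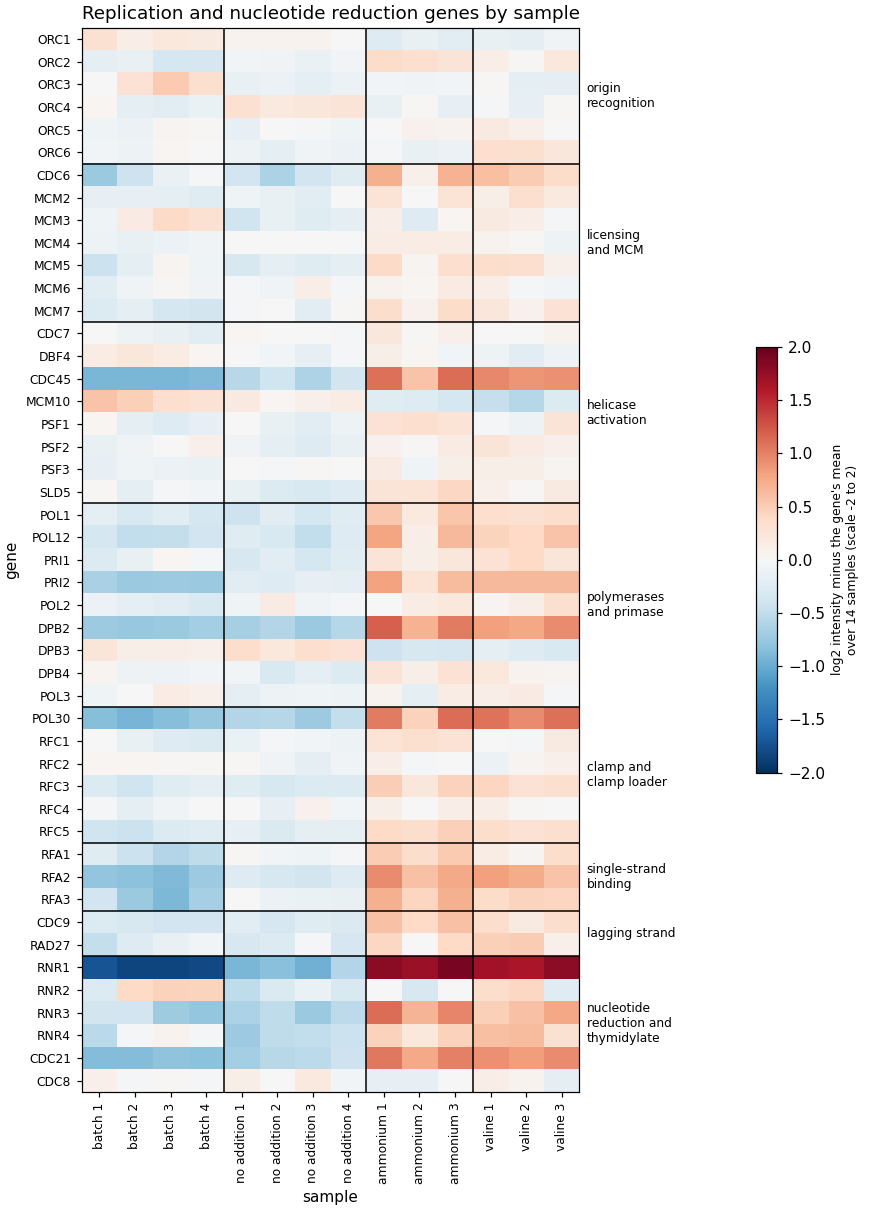
Log2 intensity of each of the 47 genes in each of 14 samples, as the deviation from that gene's mean over the 14 samples (colour scale from -2 to 2). Rows are grouped by role and columns by group; the darkest row is RNR1, from 9.37 in a batch sample to 13.11 in an ammonium sample.

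**Figure D2:**
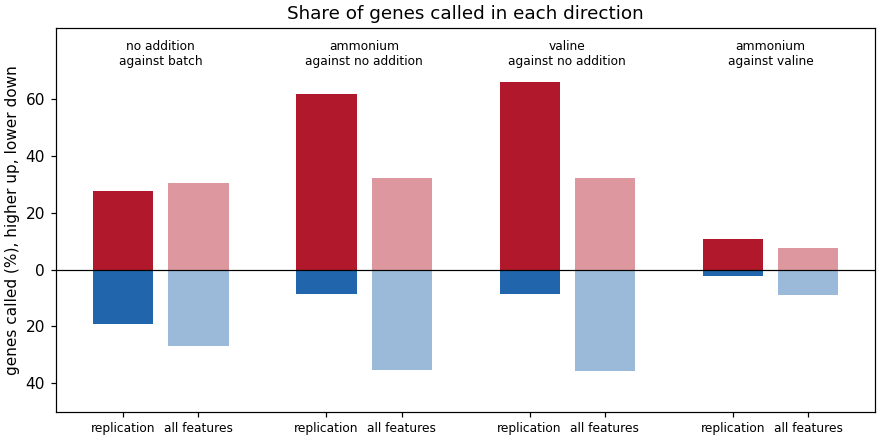
Percentage of the 47 genes (dark bars) and of all 6248 features (pale bars) called higher (above 0) or lower (below 0) at an adjusted p under 0.05. On ammonium 61.7% of the 47 genes and 32.1% of all features were called higher, and 8.51% and 35.5% lower.

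The starved cells of the continuous culture differed from batch cells at the same residual glucose in fewer of these genes and in both directions. Of the 47 genes, 13 were higher and 9 lower without addition than in batch (46.8%), against 57.3% of all features called, with 30.3% higher and 27.0% lower. The median difference was 0.05, against 0.02 for all features. Higher were ORC2, ORC4, MCM7, CDC45, PSF3, PRI2, POL2, DPB3, RFA1, RFA2, RFA3, RNR1 and CDC21. Lower were ORC1, ORC3, MCM3, DBF4, MCM10, SLD5, PRI1, RNR2 and RNR4. Slide 1 held 3 batch samples and 1 no-addition sample, and slide 2 held 1 and 3. With the slide as a block 18 genes were called, of which 16 were among those above. SLD5 (−0.15, adjusted p = 0.0541), PRI1 (−0.16, adjusted p = 0.0791) and ORC2 (0.13, adjusted p = 0.0811) were among those lost. Within slides 1 and 2 the difference of MCM3 was −0.59 and −0.36. The calls of ORC2, PSF3, PRI1, POL2 and DPB3 were lost on leaving out 1 of 2, 11, 5, 5 and 5 samples, with adjusted p from 0.0502 to 0.128 then. For ORC2 these were batch 3 and batch 4. For PSF3 they were every batch and no-addition sample, ammonium 3, valine 1 and valine 2. For PRI1 and DPB3 they were batch 2, 3 and 4 and no addition 1 and 3, and for POL2 batch 2, 3 and 4 and no addition 2 and 4. Within slide 1 only 4 of the genes were called, and within slide 2 12 were called.

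The nucleotide genes held the largest difference. RNR1, the main large subunit of ribonucleotide reductase, read 9.48, 9.37, 9.38 and 9.40 in batch 1 to 4, 10.29, 10.37, 10.25 and 10.63 without addition, 13.01, 12.94 and 13.11 on ammonium, and 12.89, 12.84 and 13.00 on valine. Batch was lowest, no addition lay between, both nitrogen groups were highest, and only the ammonium and valine ranges overlapped. The rise over no addition was 2.64 ± 0.08 (SE) on ammonium, or 6.22-fold (adjusted p = 7.12e-12), and 2.53 ± 0.08 on valine, or 5.77-fold (adjusted p = 1.27e-11). No addition itself exceeded batch by 0.98 ± 0.08, or 1.97-fold (adjusted p = 1.01e-07). Within slides 1 and 2, RNR1 differed by 2.73 and 2.63 on ammonium, by 2.58 and 2.59 on valine, and by 0.87 and 1.04 between no addition and batch, all called.

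The other large subunit gene, RNR3, which is known to be induced by DNA damage in yeast, did not share the first of these steps. It read 9.77, 9.75, 9.43 and 9.37 in batch and 9.51, 9.63, 9.40 and 9.62 without addition, with overlapping groups and a difference of −0.04 ± 0.11. It read 11.26, 10.81 and 11.11 on ammonium and 10.62, 10.73 and 10.91 on valine. All 6 nitrogen samples lay above all 8 others. The rise was 1.52 ± 0.12 on ammonium (2.87-fold, adjusted p = 4.72e-08) and 1.21 ± 0.12 on valine (2.32-fold, adjusted p = 5.46e-07).

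The small subunit genes RNR2 and RNR4 were lower without addition than in batch. RNR4 read 10.93, 11.44, 11.54 and 11.43 in batch, 10.74, 10.96, 10.98 and 11.04 without addition, 11.93, 11.67 and 11.93 on ammonium, and 12.07, 12.10 and 11.77 on valine. It was lower without addition than in batch by −0.40 ± 0.12 (adjusted p = 0.0114), where batch 1 alone overlapped with the no-addition samples, and the difference without batch 1 was −0.54. It rose by 0.91 ± 0.13 on ammonium (adjusted p = 2.4e-05) and by 1.05 ± 0.13 on valine (adjusted p = 6.2e-06), where every nitrogen sample was above all batch and no-addition samples. RNR2 read 12.58, 13.25, 13.32 and 13.30 in batch, 12.34, 12.56, 12.72 and 12.55 without addition, 12.85, 12.54 and 12.86 on ammonium, and 13.21, 13.26 and 12.61 on valine. Batch 1 and valine 3 stood near the no-addition samples. RNR2 was lower without addition than in batch by −0.57 ± 0.17 (adjusted p = 0.0107), and by −0.75 without batch 1. Its rise on valine of 0.48 ± 0.19 (adjusted p = 0.0323) was lost on leaving out no addition 1, 2 or 4, valine 1 or valine 2 (adjusted p 0.0527 to 0.144), and was 0.89 within slide 1 and 0.00 within slide 2. On ammonium RNR2 differed by 0.21 ± 0.19 (adjusted p = 0.339).

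Of the other nucleotide genes, CDC21 rose and CDC8 passed no test. CDC21, thymidylate synthase, read 7.53, 7.54, 7.59 and 7.58 in batch, 7.72, 7.85, 7.88 and 7.99 without addition, 9.46, 9.16 and 9.41 on ammonium, and 9.31, 9.24 and 9.35 on valine. As for RNR1, the batch, no-addition and nitrogen samples did not overlap. The differences were 0.30 ± 0.07 for no addition over batch (adjusted p = 0.00161), 1.48 ± 0.07 on ammonium (2.79-fold, adjusted p = 4.11e-10) and 1.44 ± 0.07 on valine (2.71-fold, adjusted p = 6.82e-10). Within slide 1, with 1 no-addition sample, the first of these was 0.15. CDC8, thymidylate kinase, which acts in the next step, differed by −0.18 ± 0.08 on ammonium (adjusted p = 0.0675) and −0.07 ± 0.08 on valine (adjusted p = 0.486).

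**Figure D3:**
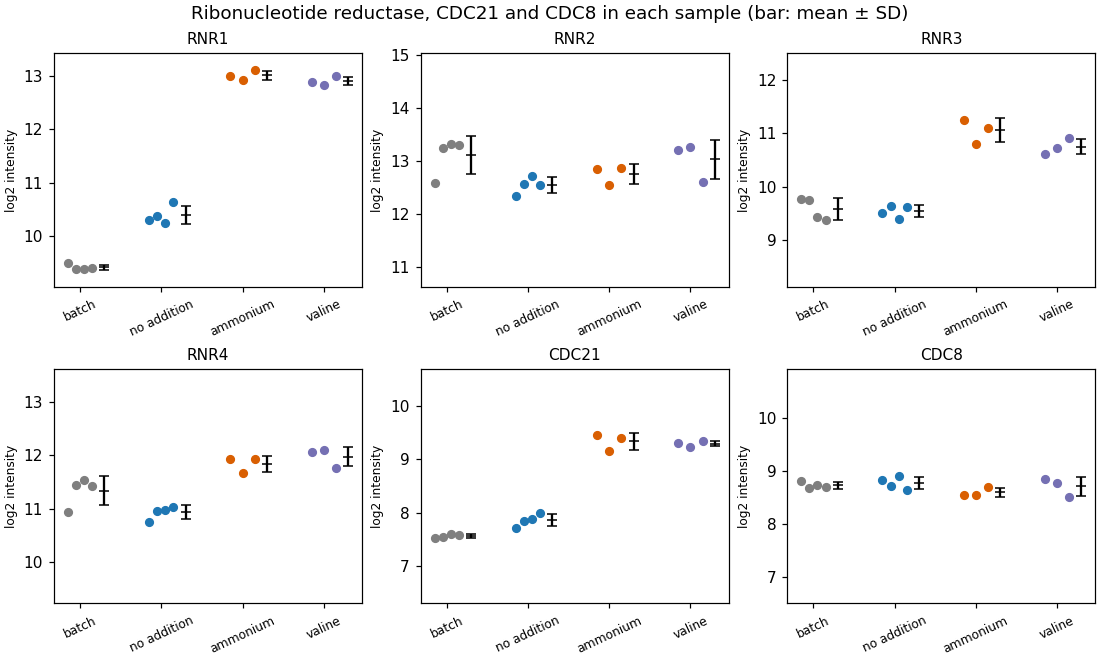
Log2 intensity of RNR1, RNR2, RNR3, RNR4, CDC21 and CDC8 in each sample of the 4 groups, with the group mean ± SD (bar); each panel spans the same number of log2 units. RNR1 stands in 3 levels (9.37 to 9.48, 10.25 to 10.63 and 12.84 to 13.11), while the groups of CDC8 overlap.

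Genes of the origin recognition complex, which marks origins throughout the cell cycle, moved in both directions. On ammonium 1 of 6 rose (16.7%, against 32.1% of all features) and 2 fell (33.3%, against 35.5%), with a median of 0.05. On valine 3 rose (against 32.3% of all features) and 2 fell (33.3%, against 35.6%), with a median of 0.10. The share that fell was thus close to that of the whole array on each source, which also moved in both directions. ORC2 read 9.15, 9.18, 8.99 and 9.00 in batch, 9.28, 9.27, 9.20 and 9.28 without addition, 9.70, 9.67 and 9.59 on ammonium, and 9.47, 9.36 and 9.55 on valine. Its groups lay in steps without overlap, from batch at the bottom through no addition and valine to ammonium. The last of these steps was not called (0.19 ± 0.07, adjusted p = 0.0651), and the first of the 2 arrays averaged for ammonium 3 read 9.47, within the valine range. The rise was 0.40 ± 0.06 on ammonium (adjusted p = 5.18e-05) and 0.20 ± 0.06 on valine (adjusted p = 0.00952), the latter lost without valine 3 (adjusted p = 0.0543). Within slide 1 neither rise was called, at 0.19 (adjusted p = 0.298) and 0.14 (adjusted p = 0.379). The call of no addition over batch was lost within each slide and with the slide as a block (0.13, adjusted p = 0.0811).

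ORC1, the subunit that resembles Cdc6, went the other way. It read 9.57, 9.39, 9.47 and 9.45 in batch, 9.34, 9.33, 9.33 and 9.28 without addition, 9.00, 9.12 and 9.04 on ammonium, and 9.12, 9.08 and 9.19 on valine. It fell by 0.27 on the log2 scale on ammonium (SE 0.05, adjusted p = 0.000348) and by 0.19 on valine (SE 0.05, adjusted p = 0.00487), and the valine call was lost within each slide. ORC4 was highest without addition, at 8.76, 8.64, 8.68 and 8.70, against 8.49, 8.27, 8.22 and 8.31 in batch, 8.30, 8.47 and 8.29 on ammonium, and 8.41, 8.28 and 8.48 on valine. The no-addition samples overlapped with no other group. The differences of ORC4 were 0.37 ± 0.07 for no addition over batch (adjusted p = 0.000212), −0.35 ± 0.07 on ammonium (adjusted p = 0.00054) and −0.31 ± 0.07 on valine (adjusted p = 0.00129). Within a slide the ammonium call was lost in slide 1 (−0.46, adjusted p = 0.0599) and the valine call in slide 2 (−0.20, adjusted p = 0.0984).

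ORC3 was higher in batch than in the other groups. It read 8.09, 8.39, 8.62 and 8.42 in batch, 7.96, 7.98, 7.90 and 7.98 without addition, 8.04, 8.03 and 8.04 on ammonium, and 8.12, 7.92 and 7.92 on valine. The no-addition group lay below batch by −0.42 ± 0.09 (adjusted p = 0.000719), and no call was made on either nitrogen source. ORC5 differed by 0.12 ± 0.06 on ammonium (adjusted p = 0.0871) and by 0.17 ± 0.06 on valine (adjusted p = 0.027). The valine call of ORC5 was lost on leaving out no addition 1, no addition 4, valine 1 or valine 2 (adjusted p 0.0518 to 0.129). ORC6, the smallest subunit, is described with the comparison of the 2 nitrogen sources.

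Of the licensing genes, 5 of 7 rose (71.4%, against 32.1% and 32.3% of all features) and 0 fell on each nitrogen source, with medians of 0.31 and 0.33. At an unadjusted p under 0.05 these counts of genes that fell were also 0. CDC6, which loads the MCM helicase with Cdt1, changed most. It read 6.57, 6.90, 7.19 and 7.28 in batch, 6.93, 6.68, 6.94 and 7.07 without addition, 8.02, 7.41 and 8.01 on ammonium, and 7.91, 7.83 and 7.68 on valine. Every nitrogen sample exceeded every other sample. The rise was 0.90 ± 0.17 on ammonium (adjusted p = 0.000255) and 0.90 ± 0.17 on valine (adjusted p = 0.000267). CDC6 lay among the dimmest 20% of features on average, where fold changes on an intensity scale may be compressed.

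The 6 MCM subunits, which form the ring of the helicase, moved by less than CDC6. On ammonium MCM5 rose by 0.49 ± 0.11, MCM7 by 0.33 ± 0.08, MCM2 by 0.31 ± 0.08 and MCM4 by 0.15 ± 0.05. The value of MCM4 within slide 1 was 0.05 (adjusted p = 0.721). On valine MCM5 rose by 0.49 ± 0.11, MCM2 by 0.34 ± 0.08, MCM3 by 0.33 ± 0.11 and MCM7 by 0.26 ± 0.08, and MCM4 stood at 0.00 ± 0.05. The valine calls of MCM3 and MCM7 were lost without valine 1 (adjusted p = 0.0604) and without valine 3 (adjusted p = 0.0562). MCM6 differed by 0.09 ± 0.07 on ammonium and by 0.02 ± 0.07 on valine, neither called. MCM3 read 9.94, 10.19, 10.40 and 10.33 in batch and 9.63, 9.87, 9.78 and 9.83 without addition. Its no-addition samples were all below the batch samples (−0.44 ± 0.10, adjusted p = 0.00208). It read 10.16, 9.77 and 10.06 on ammonium, overlapping with no addition, and 10.20, 10.15 and 9.99 on valine.

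Among helicase activators, 4 of 8 rose and 1 fell on ammonium (median 0.18), and 3 rose and 1 fell on valine (median 0.12). The 4 that rose on ammonium stood against 32.1% of all features, while the share that rose on valine was 37.5%, close to the 32.3% of all features. Those called at all were 5 on ammonium (62.5%, against 67.6%) and 4 on valine (against 67.9%), in neither case above the background. CDC45, which joins the MCM ring in the active helicase, read 7.01, 7.01, 7.01 and 7.04 in batch, 7.36, 7.53, 7.30 and 7.55 without addition, 9.03, 8.50 and 9.04 on ammonium, and 8.89, 8.80 and 8.84 on valine. It formed 3 levels like RNR1, and the lowest nitrogen sample was ammonium 2. It was higher without addition than in batch by 0.42 ± 0.10 (adjusted p = 0.0022), and rose by 1.42 ± 0.11 on ammonium (2.68-fold, adjusted p = 2.58e-08) and by 1.41 ± 0.11 on valine (2.66-fold, adjusted p = 3.11e-08). Its means of 7.02 in batch and 7.44 without addition lay under the 7.54 limit of the dimmest 20% of features, so these fold changes may be compressed.

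MCM10, a further activator of the loaded helicase, ran opposite to CDC45. It read 8.87, 8.79, 8.64 and 8.60 in batch, 8.48, 8.35, 8.41 and 8.46 without addition, 8.07, 8.05 and 7.96 on ammonium, and 7.85, 7.74 and 8.03 on valine. The batch, no-addition and nitrogen samples fell in steps that did not overlap. The differences were −0.30 ± 0.07 for no addition against batch (adjusted p = 0.00247), −0.40 ± 0.08 on ammonium (adjusted p = 0.000335) and −0.55 ± 0.08 on valine (adjusted p = 1.7e-05). Within slide 1, with 1 no-addition sample, the first of these was −0.22.

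The 4 GINS subunits, which complete the active helicase, did not move alike. SLD5 read 8.01, 7.81, 7.95 and 7.93 in batch, 7.84, 7.71, 7.68 and 7.74 without addition, 8.25, 8.26 and 8.41 on ammonium, and 8.09, 8.02 and 8.17 on valine. It was lower without addition than in batch by −0.18 ± 0.06 (adjusted p = 0.0158), with overlapping groups, a call lost with the slide as a block. SLD5 rose by 0.56 ± 0.06 on ammonium (adjusted p = 1.71e-06) and by 0.35 ± 0.06 on valine (adjusted p = 0.000196). PSF2 rose by 0.25 ± 0.07 and 0.33 ± 0.07, and PSF1 by 0.41 ± 0.09 on ammonium, with 0.15 ± 0.09 on valine (adjusted p = 0.138). Both genes lay under the limit of the dimmest 20% in batch and without addition, and PSF1 on ammonium was at 0.16 within slide 1 (adjusted p = 0.46). PSF3 differed by 0.07 ± 0.06 on ammonium and 0.09 ± 0.06 on valine, neither called.

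The kinase that starts the helicase, Cdc7 with its cyclin-like partner Dbf4, showed no call on either nitrogen source. DBF4 read 8.66, 8.73, 8.66 and 8.54 in batch, 8.50, 8.46, 8.35 and 8.47 without addition, 8.62, 8.54 and 8.46 on ammonium, and 8.41, 8.30 and 8.40 on valine. All no-addition samples were below all batch samples (−0.20 ± 0.05, adjusted p = 0.00517). Within slide 1, with 1 no-addition sample, this difference was −0.12. CDC7 differed by 0.11 ± 0.06 on ammonium (adjusted p = 0.123) and by 0.02 ± 0.06 on valine (adjusted p = 0.771).

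The polymerase and primase genes rose in 6 of 9 cases on ammonium and in 7 of 9 on valine, and 1 fell on each (medians 0.48 and 0.59). All 4 subunits of polymerase alpha and primase, which lay down primers, were called higher on both. POL1 rose by 0.74 ± 0.08 and 0.64 ± 0.08 on ammonium and valine, POL12 by 0.85 ± 0.12 and 0.80 ± 0.12, and PRI2 by 0.78 ± 0.09 and 0.85 ± 0.09. PRI2 was also higher without addition than in batch by 0.51 ± 0.08. PRI1, the catalytic primase subunit, read 8.66, 8.79, 8.98 and 8.89 in batch, 8.62, 8.71, 8.59 and 8.69 without addition, 9.19, 9.05 and 9.16 on ammonium, and 9.23, 9.34 and 9.18 on valine. It was lower without addition than in batch by −0.17 ± 0.07 (adjusted p = 0.037), with overlapping groups, a call lost with the slide as a block. PRI1 rose by 0.48 ± 0.07 on ammonium and by 0.59 ± 0.07 on valine.

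Subunits of polymerase epsilon, the leading-strand polymerase, took opposite directions. DPB2, its essential second subunit, read 6.82, 6.78, 6.80 and 6.87 in batch, 6.88, 6.96, 6.80 and 6.98 without addition, 8.74, 8.24 and 8.58 on ammonium, and 8.37, 8.32 and 8.49 on valine. Batch and no addition overlapped, and all nitrogen samples were above both. The rise was 1.62 ± 0.09 on ammonium (3.06-fold, adjusted p = 1.44e-09) and 1.49 ± 0.09 on valine (2.80-fold, adjusted p = 3.98e-09). Its means of 6.82 in batch and 6.91 without addition lay among the dimmest 20% of features, so these folds too may be compressed. DPB3, a small nonessential subunit, read 8.82, 8.69, 8.71 and 8.67 in batch, 8.93, 8.78, 8.91 and 8.86 without addition, 8.16, 8.25 and 8.24 on ammonium, and 8.40, 8.32 and 8.27 on valine. Every nitrogen sample was below every other sample, and the differences were −0.66 ± 0.06 on ammonium (adjusted p = 9.48e-08) and −0.54 ± 0.06 on valine (adjusted p = 8.21e-07).

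DPB4, the partner of Dpb3, rose by 0.41 ± 0.07 on ammonium and 0.31 ± 0.07 on valine. The catalytic subunit POL2 differed by 0.13 ± 0.08 (adjusted p = 0.157) and 0.18 ± 0.08 (adjusted p = 0.0551). POL3, the catalytic subunit of polymerase delta, which copies the lagging strand, differed by 0.13 ± 0.08 on ammonium (adjusted p = 0.159). It rose by 0.21 ± 0.08 on valine (adjusted p = 0.0286), a call lost on leaving out no addition 1, valine 1 or valine 2 (adjusted p 0.0699 to 0.11).

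The sliding clamp moved more than its loader. POL30, the clamp PCNA, read 9.24, 9.16, 9.25 and 9.34 in batch, 9.51, 9.53, 9.37 and 9.62 without addition, 11.13, 10.56 and 11.21 on ammonium, and 11.18, 11.04 and 11.19 on valine. The nitrogen samples lay above all others, with ammonium 2 the lowest of them. The rise was 1.46 ± 0.12 on ammonium (2.75-fold, adjusted p = 7.34e-08) and 1.63 ± 0.12 on valine (3.10-fold, adjusted p = 2.58e-08). The batch and no-addition samples did not overlap, but their difference of 0.26 ± 0.11 was not called (adjusted p = 0.0618). A minority of the alternative settings did call it. Among these were leaving out ammonium 2 (adjusted p = 0.00243), fitting only the 2 groups (adjusted p = 0.00574) and the slide as a block (adjusted p = 0.0494). Of the loader subunits, RFC3 rose by 0.66 ± 0.07 on ammonium and 0.62 ± 0.07 on valine, and RFC5, which lay under the limit of the dimmest 20% in batch and without addition, by 0.62 ± 0.06 and 0.53 ± 0.06. RFC1 rose by 0.38 ± 0.07 on ammonium and stood at 0.13 ± 0.07 on valine (adjusted p = 0.111). RFC2 and RFC4 had no call on either source, with differences between 0.09 and 0.12.

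All 3 subunits of the single-strand binding protein RPA were higher without addition than in batch and rose again on both nitrogen sources. RFA2, the middle subunit, read 8.94, 8.91, 8.85 and 9.00 in batch, 9.48, 9.42, 9.36 and 9.48 without addition, 10.68, 10.32 and 10.49 on ammonium, and 10.55, 10.48 and 10.31 on valine. Its steps were 0.51 ± 0.07 for no addition over batch (adjusted p = 3.79e-05), 1.06 ± 0.08 on ammonium (2.09-fold, adjusted p = 2.56e-08) and 1.01 ± 0.08 on valine (2.02-fold, adjusted p = 4.76e-08). RFA3, the small subunit, read 8.93, 8.57, 8.41 and 8.65 in batch, 9.32, 9.20, 9.18 and 9.17 without addition, 10.02, 9.75 and 10.02 on ammonium, and 9.68, 9.76 and 9.75 on valine. Here too the batch, no-addition and nitrogen samples did not overlap, with batch lowest. No addition exceeded batch by 0.58 ± 0.09 (adjusted p = 0.000102), and the further rise was 0.71 ± 0.10 on ammonium and 0.51 ± 0.10 on valine. RFA1, the large subunit, read 9.51, 9.32, 9.16 and 9.25 in batch, 9.77, 9.70, 9.67 and 9.72 without addition, 10.26, 10.11 and 10.27 on ammonium, and 9.90, 9.81 and 10.10 on valine. It was higher without addition than in batch by 0.41 ± 0.08 and rose by 0.50 ± 0.08 on ammonium. Its rise of 0.22 ± 0.08 on valine (adjusted p = 0.0312) was lost on leaving out no addition 2, 3 or 4 or valine 3 (adjusted p 0.0522 to 0.175) and was 0.14 without valine 3 and 0.08 within slide 1.

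Both lagging-strand genes rose. CDC9, the DNA ligase that seals the fragments, read 8.11, 8.06, 8.00 and 8.00 in batch, 8.15, 8.05, 8.14 and 8.09 without addition, 8.97, 8.78 and 8.96 on ammonium, and 8.73, 8.56 and 8.73 on valine. Batch and no addition overlapped, and the ammonium samples were above the valine samples. The rise was 0.79 ± 0.06 on ammonium (adjusted p = 3.15e-08) and 0.56 ± 0.06 on valine (adjusted p = 1.26e-06). RAD27, the flap nuclease that trims the fragments, rose by 0.51 ± 0.13 and 0.60 ± 0.13.

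**Figure D4:**
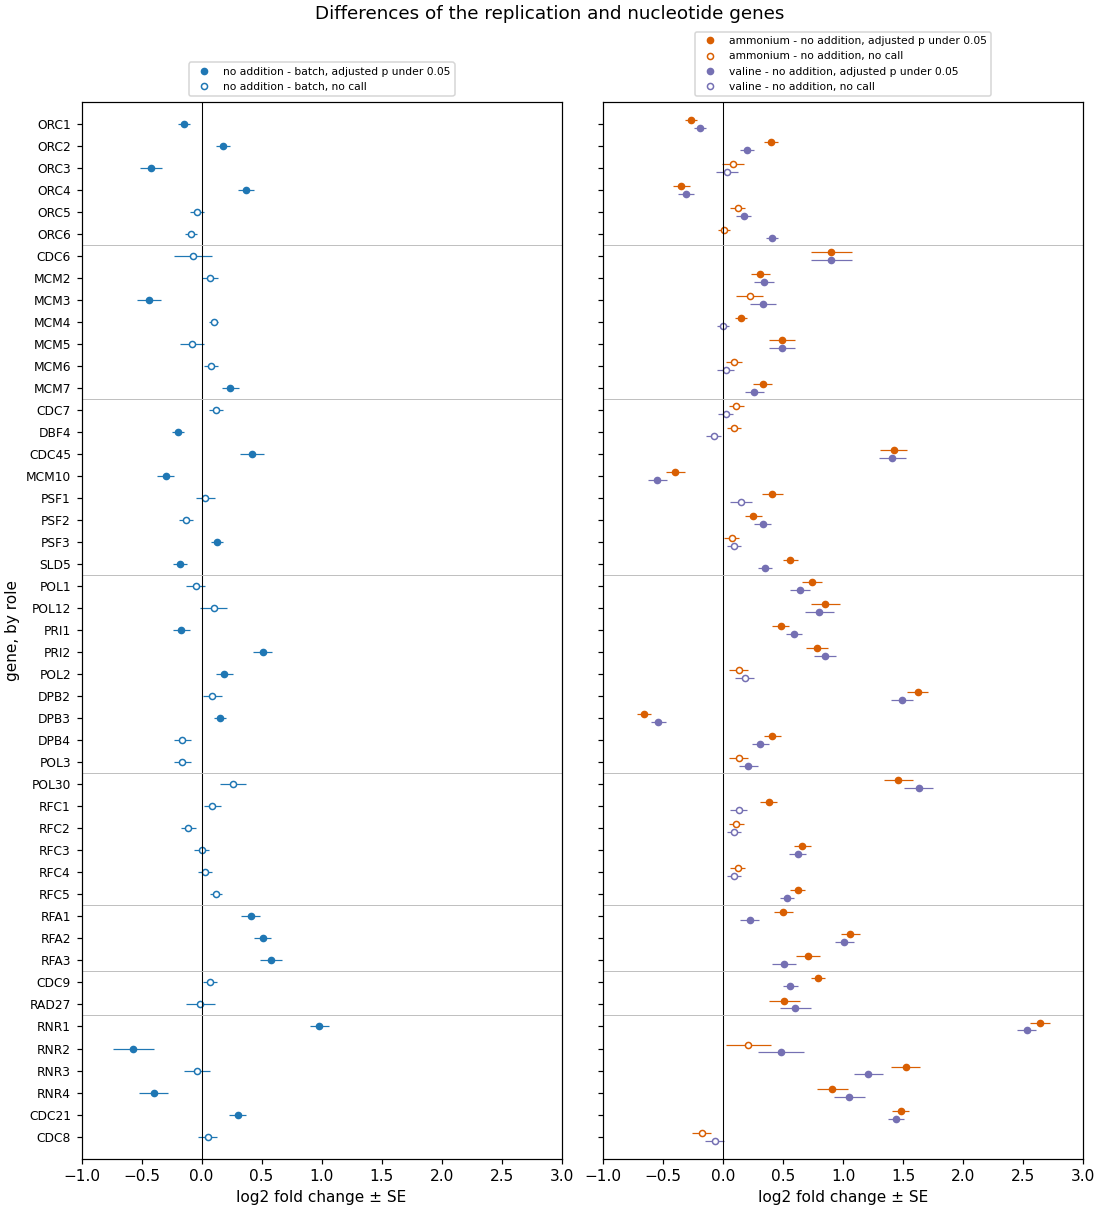
Log2 difference ± SE of each of the 47 genes, by role, for no addition minus batch (left) and for ammonium or valine minus no addition (right); filled points have an adjusted p under 0.05. RNR1 lies farthest to the right in both panels (0.98, 2.64 and 2.53), and DPB3 farthest to the left on ammonium (−0.66).

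Few of these genes differed by test between ammonium and valine, which supplied the same added nitrogen. Of the 47 genes, 5 were higher and 1 lower on ammonium than on valine (12.8%), against 16.4% of all features called, with 7.59% higher and 8.79% lower. The median difference was 0.04, against 0.01 for all features. ORC6 was the one lower on ammonium. It read 8.72, 8.68, 8.81 and 8.78 in batch, 8.68, 8.60, 8.71 and 8.65 without addition, 8.74, 8.62 and 8.65 on ammonium, and 9.11, 9.10 and 9.00 on valine. All 3 valine samples lay above all others, and the ammonium samples lay within the range of the 2 groups without added nitrogen. The difference between the nitrogen sources was −0.40 ± 0.06 (adjusted p = 0.000301), with −0.43 within slide 1 (adjusted p = 0.144) and −0.33 within slide 2 (adjusted p = 0.0781). It was called in 26 of 28 alternative settings.

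The 5 genes higher on ammonium had smaller differences. They were MCM4 (0.15 ± 0.05), SLD5 (0.22 ± 0.07), CDC9 (0.23 ± 0.06), RFC1 (0.24 ± 0.08) and RFA1 (0.28 ± 0.09), with adjusted p from 0.0271 to 0.0472. Ammonium 1 and 2 lay on slide 2, and valine 1 and 2 on slide 1. On slides 1 and 2 ammonium 3 read 8.63 and 8.83 for MCM4, 8.74 and 9.17 for CDC9, and 8.80 and 9.09 for RFC1. These gaps within 1 RNA exceeded the called differences of these genes. Ammonium 3 read 10.18 and 10.36 for RFA1, and 8.41 and 8.42 for SLD5. The call of CDC9 was lost without ammonium 1, ammonium 3 or valine 2 (adjusted p 0.0912 to 0.137). Those of MCM4, SLD5, RFC1 and RFA1 were each lost on leaving out any of 12, 8, 10 and 10 samples (adjusted p 0.0524 to 0.197). Ammonium 1, ammonium 3 and valine 2 were among them for each gene. The others were ammonium 2, valine 3, batch 2 to 4 and every no-addition sample for MCM4, and ammonium 2, valine 1, batch 4 and no addition 2 and 4 for SLD5. For RFC1 they were ammonium 2, valine 1, batch 2 and every no-addition sample, and for RFA1 valine 1, batch 2, batch 4 and every no-addition sample. No member was called within slide 1 or within slide 2 by limma, where 3 and 2 members had an unadjusted p under 0.05, against 10 in the fit of all samples. For the genes with the largest rises the intervals of the difference (95%) were −0.08 to 0.29 for RNR1, −0.08 to 0.34 for DPB2, −0.13 to 0.21 for CDC21, −0.23 to 0.25 for CDC45 and −0.45 to 0.11 for POL30. For RNR3 the difference was 0.31 ± 0.13, from 0.03 to 0.58, with an adjusted p of 0.123. Without ammonium 2, DPB2 (0.27, adjusted p = 0.0282) and RNR3 (0.43, adjusted p = 0.0412) were called higher on ammonium than on valine.

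Ammonium 2 was the lowest of the 3 ammonium samples in 24 of the 29 genes called higher on ammonium. The deviation from a gene's mean, as the median over the 47 genes, was 0.11 in it, against 0.27 and 0.28 in ammonium 1 and 3, 0.16 to 0.21 on valine, −0.19 to −0.14 without addition and −0.18 to −0.13 in batch. Without it, 37 genes were called on ammonium, 33 higher and 4 lower, with a median of 0.40. The median difference between ammonium and valine was then 0.12, against 0.04 with it, and 4 genes were higher and 1 lower. Of these 5 calls, 3 were shared with the 6 above (ORC6, RFA1 and CDC9). Those of MCM4, SLD5 and RFC1 were lost, and DPB2 and RNR3 were called.

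Against batch, the same nitrogen-fed samples showed the sum of both steps. On ammonium 32 genes were higher and 4 lower than in batch (76.6%), against 68.7% of all features called, with 33.2% higher and 35.5% lower. On valine 30 were higher and 5 lower (74.5%), against 66.5% of all features called, with 31.6% higher and 34.8% lower. RNR1 was higher than in batch by 3.61 ± 0.08 on ammonium (12.2-fold) and by 3.50 ± 0.08 on valine (11.3-fold). CDC45 was higher by 1.84 ± 0.11 and 1.83 ± 0.11, CDC21 by 1.78 ± 0.07 and 1.74 ± 0.07, and POL30 by 1.72 ± 0.12 and 1.89 ± 0.12. Lower than in batch on both were ORC1, ORC3, MCM10 and DPB3, with MCM10 at −0.70 ± 0.08 on ammonium and −0.85 ± 0.08 on valine. DBF4 was lower than in batch on valine (−0.28 ± 0.06, adjusted p = 0.000691), with a difference on ammonium of −0.11 ± 0.06 (adjusted p = 0.108). The ammonium call of MCM6 (0.17) and the valine calls of CDC7 (0.14), PSF2 (0.20), SLD5 (0.17) and RFC1 (0.22) were lost on leaving out 1 of 5, 11, 1, 4 and 1 samples, with adjusted p from 0.0514 to 0.147. For PSF2 this was valine 1 and for RFC1 valine 3. For MCM6 they were ammonium 1, ammonium 3 and batch 1, 2 and 4, and for SLD5 batch 2, batch 4, valine 1 and valine 3. For CDC7 they were ammonium 3, batch 2 to 4 and every no-addition and valine sample.

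By group mean, 24 of the 47 genes were highest on ammonium, 13 on valine, 7 in batch and 3 without addition. Batch was lowest in 24, no addition in 18, ammonium in 3 and valine in 2. Shares over all features were not computed for these ranks or for the order that follows. The order ammonium, valine, no addition, batch was the most frequent, in 18 genes. Neighbours in it often did not differ: ammonium and valine differed by test in 6 genes, and no addition and batch in 22. MCM6, CDC7, RFC2, RFC4 and CDC8 were called in none of the comparisons among no addition, ammonium and valine, or between no addition and batch, while RFA1 was higher in each of them.

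Other genes of the pathway were taken from lists chosen by function, and their shares called are to be read against the same backgrounds. Of 29 other replication factors, 19 rose and 4 fell on ammonium (median 0.23), and 18 rose and 6 fell on valine. RNH201, a subunit of ribonuclease H2, rose by 1.18 ± 0.08 on ammonium, CTF18, of an alternative clamp loader, by 0.94 ± 0.07, and POL31, a subunit of polymerase delta, by 0.72 ± 0.06. Of 13 regulators of G1/S transcription, 10 rose and 1 fell on each source. YOX1, a repressor, rose by 2.47 ± 0.10 on ammonium and 1.84 ± 0.10 on valine, and PCL1, a G1 cyclin, by 2.35 ± 0.13 and 2.22 ± 0.13. NRM1, a corepressor of the MBF factor that drives many replication genes in yeast, rose by 1.21 ± 0.07 and 0.85 ± 0.07. YOX1 and NRM1 were also higher on ammonium than on valine, by 0.63 ± 0.11 (adjusted p = 0.00165) and 0.36 ± 0.07 (adjusted p = 0.00484).

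Of 11 genes that control ribonucleotide reductase, 7 rose and 3 fell on ammonium, and 6 rose and 3 fell on valine. HUG1, an inhibitor of the small subunits, had a group mean of 6.49 in batch, 6.70 without addition, 9.87 on ammonium and 9.39 on valine, the first 2 of them among the dimmest 20%. Its rise was 3.17 ± 0.13 on ammonium (adjusted p = 4.36e-11) and 2.70 ± 0.13 on valine (adjusted p = 2.9e-10). DUN1, a checkpoint kinase acting on the reductase, rose by 1.09 ± 0.05 and 1.05 ± 0.05. DIF1, which carries the small subunits into the nucleus, rose by 0.63 ± 0.07 and 0.65 ± 0.07.

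Of 14 further genes of nucleotide supply, 11 rose and 3 fell on ammonium (median 0.50), with URA2, the first enzyme of pyrimidine synthesis, at 1.44 ± 0.10, DCD1, dCMP deaminase, at 0.97 ± 0.09 and DUT1, dUTPase, at 0.90 ± 0.07. Of 8 genes of cohesin and its loading, 7 rose on each source and SCC4, a loader subunit, fell. MCD1, the cohesin subunit cleaved at anaphase, rose by 2.04 ± 0.14 on ammonium and 2.06 ± 0.14 on valine, and IRR1 by 0.82 ± 0.08 and 0.81 ± 0.08. Of 7 repair genes listed as induced by DNA damage, 4 fell on each source, and 1 rose on ammonium and 2 on valine. RNR3 and HUG1, which rose, were counted in other lists, so these counts do not cover all damage-induced genes. MAG1, a DNA glycosylase, differed by −1.24 ± 0.09 and −1.07 ± 0.09, PHR1, the photolyase, by −0.93 ± 0.09 and −0.82 ± 0.09, and DIN7, a nuclease, by 0.88 ± 0.07 and 0.76 ± 0.07.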

How the data were processed

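Total RNA was hybridised to 1-colour Cy3 arrays. Each deposited value is a probe's log2 intensity, a scale inferred from the range of values. Per the submitters' processing notes R 2.13.1 and limma were used, and how the authors normalized or background-corrected is not stated in the sources used here. Of 6271 probes, 5220 had 1 gene symbol in the platform annotation and 1051 none; 51 symbols were updated through RefSeq and 2 were not matched. Probes of a gene were averaged, giving 6248 features. The 2 arrays of ammonium 3 were averaged. One fit of 14 samples (limma 3.58.1, R 4.3.3) used a mean per group, with 10 residual degrees of freedom, two-sided moderated tests and Benjamini-Hochberg adjustment over all features; it was tested on simulated data. Members and gene lists were chosen with earlier results of these data known. All 47 genes could be named. Per-sample values were given for RNR1 to RNR4, the gene with the largest difference on ammonium in each role, the 3 largest differences in each of 6 comparisons, and genes called against the majority; from other lists, the 3 genes with the smallest adjusted p on ammonium were named. Replicate numbers did not pair samples: 4 of 19 same-number pairs correlated above 0.1 (−0.57 to 0.31). Alternatives changed centring, filter, probe choice, slide, replicate block, weights, arrays and samples. Sequences and promoter motifs were not analysed here.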

Additional observations from a re-analysis of the deposited data

Results flagged for a closer look

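In groups of 4 samples, 3 genes had a sample far from the others, among 94 groups examined, of which chance would flag 4.7 at 1 in 20. RNR2 in batch 1 was 12.58 against 13.25 to 13.32 in the other batch samples. ORC2 in no addition 3 was 9.20 against 9.27 to 9.28. CDC45 in batch 4 was 7.04 against 7.01 in the others. The sample whose labels name both ammonium and valine lay above every no-addition sample in 39 of the 47 genes and below in 5, with RNR1 at 13.06, CDC45 at 9.09, MCM10 at 8.39 and ORC6 at 8.79. The matching shares over all features were not computed, so these counts do not set the 47 genes apart. The value of this sample was within the range of the ammonium samples in 21 genes and within that of the valine samples in 9. The ranges differed in width, so these counts do not assign the sample to a group. For CDC45 they were 8.50 to 9.04 on ammonium and 8.80 to 8.89 on valine. For ORC3 they were 8.03 to 8.04 and 7.92 to 8.12.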

How the results depend on the processing

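The counts of called genes on ammonium and on valine, against no addition or batch, stayed within 1.5 times of the reported counts in every alternative, except within slide 1. Leaving out 1 sample gave 33 to 37 on ammonium, 32 to 36 on valine, 35 to 38 for ammonium and 32 to 37 for valine against batch, 18 to 25 for no addition against batch, and 1 to 8 for ammonium against valine. Within slide 1 the counts were 21 on ammonium, 22 on valine, 4 for no addition against batch and 0 for ammonium against valine (3 at an unadjusted p under 0.05 by limma). Within slide 2 they were 12 for no addition against batch and 0 for ammonium against valine (2 at an unadjusted p under 0.05). At an adjusted p under 0.01, 12 genes were called for no addition against batch and 1 for ammonium against valine. The count for ammonium against valine was 2 with the slide as a block, 2 with the replicate block, 1 with only its 2 groups in the fit, 1 with the first array of ammonium 3 only, 17 with array weights and 13 without batch 1, ammonium 2 and valine 3 together. The cause was not tested. The replicate block, though the numbers do not pair samples, gave 33 on ammonium, 34 on valine and 22 for no addition against batch. For the genes given per sample, 3859 of 4026 values kept their call or stayed without one, 119 lost the call and 47 gained it. Direction was not compared where neither fit made a call. RNR2 on valine turned to 0.00 within slide 2 (adjusted p = 0.982). Signal near background limits CDC6, PSF2 and RFC4, among the dimmest 20% of features on average, and CDC45, PSF1, DPB2 and RFC5, there by their batch and no-addition means.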
